A study of Mus musculus with 14 samples.

Results

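In mouse liver, 507 LSD1 regions were listed both in livers with an inducible YAP transgene (YAP) and in wild-type livers (WT). They were chosen by position: overlapping or touching entries of each LSD1 list were merged, and a merged YAP region was a member if it had at least 1 bp in common with a merged WT region. The 507 members, called common regions here, made up 17.2% of the 2949 YAP regions (Wilson 95% interval 15.9 to 18.6) and 33.8% of the 1500 WT regions (31.5 to 36.2). The other regions were 2442 YAP-only and 993 WT-only regions.

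The regions came from chromatin immunoprecipitation and sequencing of whole liver with antibodies against LSD1, H3K4me2 and H3K4me1, with 2 replicates of each antibody per genotype and 1 input library per genotype. Both genotypes had the strain label C57BL/6. The YAP mice carried a transgene that doxycycline, at 50 mg/L in the drinking water for 10 days, switched on in the liver. The same treatment text stands with every library. Doxycycline intake of the WT mice, sex, age, the promoter that drives the transgene and the source of the replicates are not given. Each deposited list stands for both replicates of its antibody and genotype, so no spread between replicates can be had and no p-value is given. Intervals are 95% intervals that treat regions as independent and cover counting error only.

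LSD1, encoded by Kdm1a, is a histone demethylase that removes methyl groups from mono- and dimethylated lysine 4 of histone H3, the marks H3K4me1 and H3K4me2. It works in complexes with CoREST and histone deacetylases, and it is also found at promoters of genes that are in use. H3K4me2 marks promoters and enhancers. YAP is a transcriptional co-activator that the Hippo kinases restrain and that binds DNA through TEAD factors.

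Promoter sequences are shown for members at gene starts. The first 4 hold the letters of the YY1 motif just after the start. Counted anywhere in the promoter, these letters were more frequent at common than at YAP-only promoters in the motif comparison below. The unadjusted interval of the difference from WT-only promoters was -2.58 to 7.40 points. The others are the promoters at Snx11 and Zbtb6, the members with the highest ranks at gene ends, which hold ETS letters, and at Zfp128, which holds ZNF143 letters. Each runs 5′ to 3′ on the strand of its gene, from 250 bases before to 50 bases after the start, from RefSeq on GRCm38.p6. Capitals mark the letters of the YY1, ETS, ZNF143 and ZBTB33 motifs on either strand.
Gpatch3 promoter (chr4:133574495-133574794, plus strand): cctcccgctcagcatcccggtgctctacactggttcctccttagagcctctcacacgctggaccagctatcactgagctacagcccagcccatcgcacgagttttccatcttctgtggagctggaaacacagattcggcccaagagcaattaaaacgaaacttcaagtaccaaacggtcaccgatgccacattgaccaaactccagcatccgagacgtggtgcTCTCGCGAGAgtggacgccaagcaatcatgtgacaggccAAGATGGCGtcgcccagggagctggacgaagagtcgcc
Mrpl35 promoter (chr6:71823735-71824034, minus strand): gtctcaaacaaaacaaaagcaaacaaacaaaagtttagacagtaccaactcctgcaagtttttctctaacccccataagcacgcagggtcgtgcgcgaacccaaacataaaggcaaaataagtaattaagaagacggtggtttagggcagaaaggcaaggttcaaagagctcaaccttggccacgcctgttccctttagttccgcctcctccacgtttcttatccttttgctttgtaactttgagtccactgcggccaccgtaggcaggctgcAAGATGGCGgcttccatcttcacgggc
Ndufs4 promoter (chr13:114388045-114388344, minus strand): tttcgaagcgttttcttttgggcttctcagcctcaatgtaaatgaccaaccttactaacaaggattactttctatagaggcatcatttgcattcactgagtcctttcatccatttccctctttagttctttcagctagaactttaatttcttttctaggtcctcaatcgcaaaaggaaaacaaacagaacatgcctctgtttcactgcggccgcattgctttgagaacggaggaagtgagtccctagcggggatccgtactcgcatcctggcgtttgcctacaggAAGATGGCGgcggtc
Bckdha promoter (chr7:25658712-25659011, minus strand): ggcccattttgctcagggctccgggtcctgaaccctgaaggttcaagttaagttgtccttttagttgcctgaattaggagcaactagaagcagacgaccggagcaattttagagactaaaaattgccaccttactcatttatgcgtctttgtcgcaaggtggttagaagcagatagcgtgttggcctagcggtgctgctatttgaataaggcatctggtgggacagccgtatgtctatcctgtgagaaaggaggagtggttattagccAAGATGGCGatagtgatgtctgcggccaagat
Snx11 promoter (chr11:96777506-96777805, minus strand): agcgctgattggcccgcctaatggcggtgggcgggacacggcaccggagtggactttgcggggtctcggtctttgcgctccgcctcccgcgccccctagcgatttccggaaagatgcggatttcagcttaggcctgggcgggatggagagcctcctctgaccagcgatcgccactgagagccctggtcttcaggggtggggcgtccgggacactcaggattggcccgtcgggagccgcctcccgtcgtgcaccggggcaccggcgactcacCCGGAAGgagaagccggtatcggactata
Zbtb6 promoter (chr2:37430870-37431169, minus strand): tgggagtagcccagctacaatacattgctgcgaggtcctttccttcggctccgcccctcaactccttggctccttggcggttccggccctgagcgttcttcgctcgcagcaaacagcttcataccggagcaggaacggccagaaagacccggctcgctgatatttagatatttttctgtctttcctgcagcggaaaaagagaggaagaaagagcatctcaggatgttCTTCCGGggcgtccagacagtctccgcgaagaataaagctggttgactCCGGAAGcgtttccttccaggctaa
Zfp128 promoter (chr7:12880928-12881227, plus strand): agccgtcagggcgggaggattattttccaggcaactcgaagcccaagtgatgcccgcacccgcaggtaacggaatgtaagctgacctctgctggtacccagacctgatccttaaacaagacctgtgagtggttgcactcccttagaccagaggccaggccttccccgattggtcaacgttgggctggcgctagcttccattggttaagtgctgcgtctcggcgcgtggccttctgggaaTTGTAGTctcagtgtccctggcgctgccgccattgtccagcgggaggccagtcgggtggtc
Gpatch3 encodes a G-patch protein, Mrpl35 a protein of the mitochondrial ribosome, Ndufs4 a subunit of respiratory complex I and Bckdha a subunit of the enzyme that breaks down branched-chain keto acids. In these 4 promoters the YY1 letters began 13, 24, 36 and 19 bases after the start, counted from 1 at the start, in the order Gpatch3, Mrpl35, Ndufs4 and Bckdha. The Gpatch3 promoter also held ZBTB33 letters 27 bases before the start. Zbtb6 held ETS letters on both strands, 23 bases before and 26 bases after its start.

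The next values describe how the members were chosen and test nothing. YAP and WT centres of a common region lay a median of 54 bp apart (quartiles 20 and 115 bp, highest 516 bp), and 240 of 507 pairs (47.3%) had centres within 50 bp. The shared stretch had a median of 369 bp and ranged from 66 to 910 bp. Just inside the rule were a region within Fermt2 with 66 shared bp, a region within Ppara with 75 shared bp and a region within Lrrn4 with 85 shared bp. Fermt2 encodes an adaptor of integrin adhesions, and Ppara the nuclear receptor for fatty acids. Just outside it were YAP regions near Ebpl, Ywhaq and Oscp1, which a WT region missed by 49, 71 and 72 bp. A WT region lay within 1 kb of 62 of the 2442 YAP-only regions.

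The authors' signal, an enrichment value whose definition is not given in the sources used here, was compared only within a list. In the YAP list it had a median of 40.2 at common regions (quartiles 34.5 and 50.6) and of 34.8 at YAP-only regions (31.2 and 39.6). The WT list had medians of 36.9 at common regions (32.4 and 43.1) and of 33.1 at WT-only regions (29.8 and 37.0). Regions with the highest signal were thus more often members. With each list cut into 10 classes of signal, 46.1% of the class with the highest YAP signal and 9.15% of the class with the lowest were common. For the WT list these shares were 67.3% in the highest and 21.3% in the lowest class.

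The ranking within the members was only partly shared between genotypes. Over the 507 pairs the YAP and WT signals had a Spearman correlation of 0.292 and a Pearson correlation of 0.336, as a description, since pairs share their libraries. The highest class of both lists held 51 members, and the lower 50% of both lists held 65. Fbxw7, which encodes the substrate receptor of a ubiquitin ligase, had a signal of 94.8 in the YAP list and 41.2 in the WT list. These are percentiles 99.97 and 81.5 of the lists. Ccdc90b, a coiled-coil protein gene, had a signal of 52.6 in the YAP list and 73.8 in the WT list, at percentiles 92.7 and 99.9. Both genes thus ranked high in both lists.

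**Figure D1:**
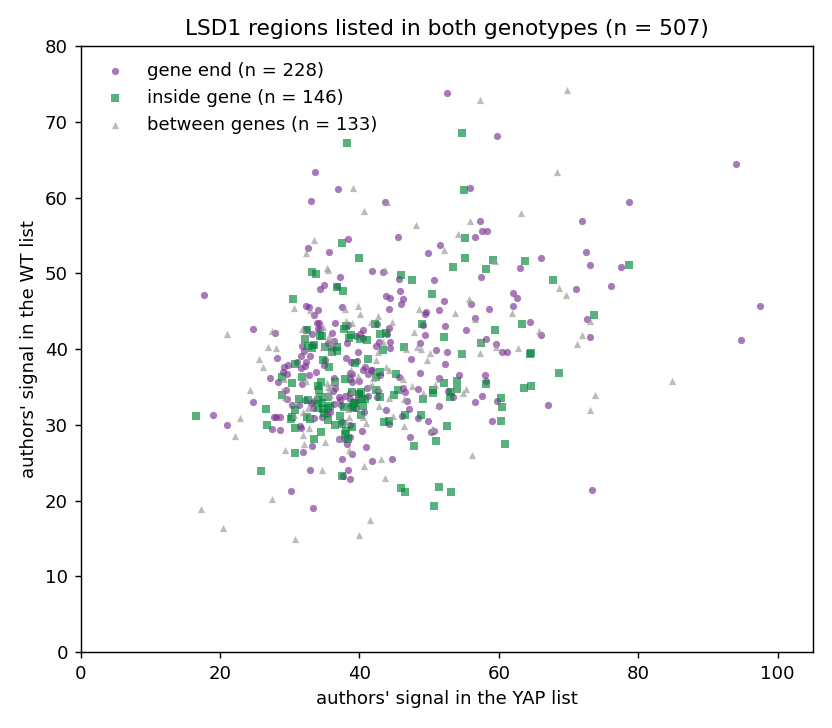
Each point is 1 of the 507 common regions, with the authors' signal in the YAP list on the x axis and in the WT list on the y axis, by position relative to protein-coding genes. The 3 positions overlap over the whole range, and the points scatter widely, with a Spearman correlation of 0.292. Values are comparable only along each axis.

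Common regions lay at gene ends more often than regions of 1 genotype did. A gene end was the stretch within 1 kb of the first or last base that the RefSeq table gives a protein-coding gene. Of the 507 common regions, 228 (45.0%, 40.7 to 49.3) were at a gene end, 146 (28.8%) inside a gene and 133 (26.2%) between genes. Of the YAP-only regions 34.5% were at a gene end (32.7 to 36.4), and of the WT-only regions 35.1% (32.2 to 38.2). The difference was 10.4 percentage points against YAP-only regions (5.77 to 15.2, Newcombe interval) and 9.63 points against WT-only regions (4.39 to 14.9), here with the WT coordinates of the common regions.

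The difference in position was as large on average within 4 classes of signal. Within classes of YAP signal the difference from YAP-only regions was 10.9 points (6.08 to 15.7). From the lowest to the highest class it was 9.71, 11.7, 7.14 and 12.9 points. Within classes of WT signal the difference from WT-only regions was 9.58 points (4.00 to 15.1). By class it was 7.46, 2.48, 7.30 and 15.0 points, largest in the class with the highest signal. RefSeq promoters, the 300 bases around a start, told the same position more tightly. A promoter of a protein-coding gene overlapped 178 common regions (35.1%), against 23.5% of YAP-only and 23.4% of WT-only regions. With the WT coordinates of the common regions it was 176 (34.7%).

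**Figure D2:**
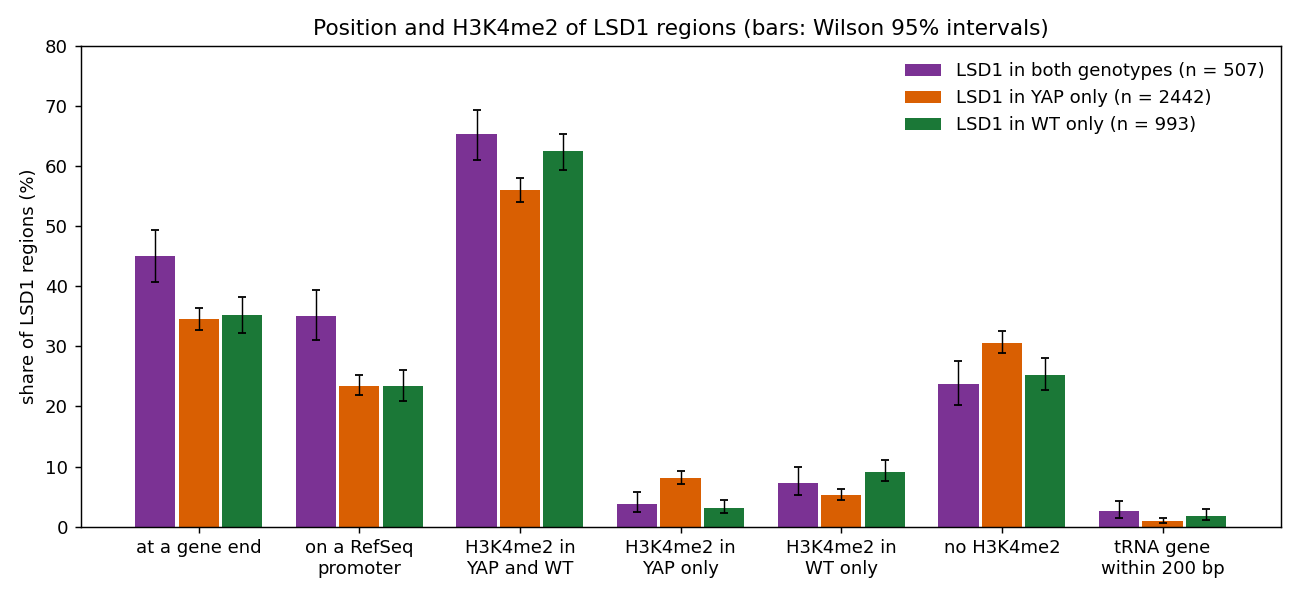
Bars give the percentage of LSD1 regions with each feature, for common, YAP-only and WT-only regions, with Wilson 95% intervals as whiskers. Regions of both genotypes had the highest shares at gene ends (45.0%) and on RefSeq promoters (35.1%), and their share with H3K4me2 in YAP alone (3.75%) was below that of YAP-only regions (8.07%).

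Common regions sat close to the start itself. The promoter table, which also gives the strand, holds no gene of chromosome 18, so 489 common regions, in YAP coordinates, entered here. Of these, 203 (41.5%) had their centre within 1 kb of a start, against 30.5% of YAP-only and 31.4% of WT-only regions. Of the 203, 149 (73.4%, 66.9 to 79.0) were within 250 bp of the start, against 62.5% of YAP-only and 62.5% of WT-only regions within 1 kb. That is 10.9 points more than YAP-only (3.56 to 17.6) and 10.9 points more than WT-only regions (2.59 to 18.9).

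The median centre lay at -73 bp from the start, which is upstream. The centre was upstream in 60.1% of the 203 common regions, against 56.4% of YAP-only and 51.2% of WT-only regions. The interval of this difference was -4.03 to 11.2 points for YAP-only regions and 0.0795 to 17.5 points for WT-only regions. Both used the YAP coordinates of the common regions, whose WT centres lay a median of 54 bp away. Starts that diverge from each other lay at 11.3% of the 203, against 11.4% of YAP-only and 8.64% of WT-only regions, and neither difference had an interval that left out 0.

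**Figure D3:**
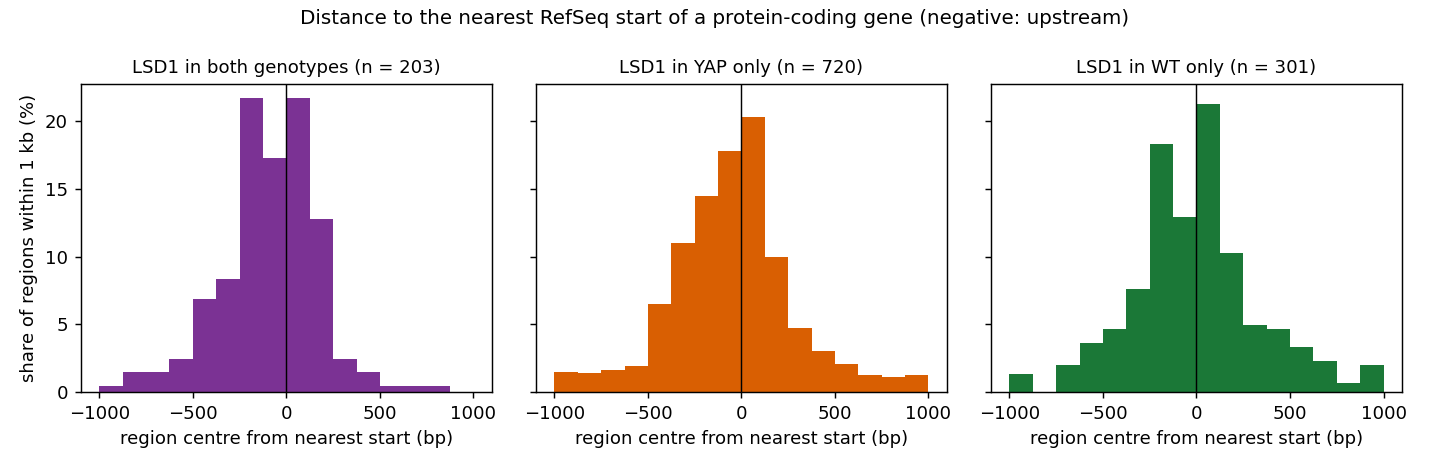
Histograms of the distance from the centre of an LSD1 region to the nearest RefSeq start, in bp, negative upstream, for centres within 1 kb, with the percentage of such regions per bin on the y axis. Common regions are gathered within 250 bp of the start (73.4%), and the YAP-only and WT-only regions reach farther out (62.5% within 250 bp in each).

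In all, 272 protein-coding genes had a common region at an end, or 1.24% of the 21887 genes in the table. Of the 272, 271 also had H3K4me2 at an end in both genotypes, and they were 2.22% of the 12223 genes with that mark. Of the 228 regions, 44 were at the ends of several genes. Zfp788, a zinc finger gene, was the 1 gene with more than 1 common region at an end.

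The genes that follow had the highest mean rank over both lists among members at gene ends. They are set out by role and not by rank, and this order was not tested. Snx11, a sorting nexin of endosomes, had a signal of 94.0 in YAP and 64.5 in WT livers at chr11:96777508-96777907. Its centre was at -152.5 bp from a start inside the annotated gene, negative values being upstream. Mia3, needed for the export of collagen from the endoplasmic reticulum, had 57.2 in YAP and 56.9 in WT livers. Erp44, a folding factor of the same compartment, shares its region with the start of Invs, a gene of cilia, at 76.0 in YAP and 48.3 in WT livers. Borcs7, of the complex that positions lysosomes, had 62.5 in YAP and 46.8 in WT livers.

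Zinc finger genes with such ranks were Zbtb6, Zbtb26, Zfp128 and Zfp846. Zbtb6 and Zbtb26, transcription factors with a BTB domain, share the region chr2:37430837-37431441, with a signal of 78.6 in YAP and 59.4 in WT livers. Zfp128 had 77.6 in YAP and 50.8 in WT livers at chr7:12880775-12881174, and Zfp846 had 63.0 in YAP and 50.7 in WT livers. Counted by symbol, 12 of 468 Zfp and Zbtb genes had a common region at an end (2.56%, beside 1.24% of all genes). Among genes with H3K4me2 at an end in both genotypes this was 12 of 376 (3.19%, beside 2.22%). YAP-only regions were at the ends of 22 and WT-only regions of 11 of the 468, against 980 and 376 of all 21887 genes.

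Psmc4, an ATPase of the proteasome's regulatory particle, had a signal of 59.7 in YAP and 68.1 in WT livers. Ube2o, a ubiquitin-conjugating enzyme, had 57.6 in YAP and 55.6 in WT livers. Anapc7, a subunit of the anaphase-promoting complex, had 62.0 in YAP and 47.4 in WT livers. Nsl1, a kinetochore gene, shares a region with Tatdn3, at 71.0 in YAP and 47.9 in WT livers.

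Slc25a47, a mitochondrial carrier of liver, had a signal of 72.0 in YAP and 56.9 in WT livers. Its region lay inside the annotated gene, with its centre at -775.5 bp from a start that is also inside the gene. Nagk, a kinase of N-acetylglucosamine, had 57.4 in YAP and 49.5 in WT livers, with its centre at 16.5 bp from its start. Ctnnb1, which encodes beta-catenin of the WNT pathway, had 56.6 in YAP and 54.8 in WT livers at chr9:120933024-120933624. Ip6k2, an inositol hexakisphosphate kinase, had the highest YAP signal of all members, 97.5, and 45.7 in WT livers.

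Med25, a subunit of Mediator, had a signal of 58.2 in YAP and 55.6 in WT livers. Gpatch3 had 55.8 in YAP and 61.3 in WT livers at chr4:133574375-133574774. Rwdd1 had 72.4 in YAP and 52.8 in WT livers, Abcc10, an ABC transporter, 73.1 in YAP and 51.1 in WT livers, and Irak1bp1 66.1 in YAP and 52.1 in WT livers. Among members at gene ends, the 5 with the lowest mean rank included Crp, the acute-phase C-reactive protein of hepatocytes, with 19.0 in YAP and 31.2 in WT livers. Guk1, a guanylate kinase, had 21.1 in YAP and 30.0 in WT livers, Fxr1, an RNA-binding protein, 27.4 in YAP and 29.5 in WT livers, N4bp2l2 28.6 in YAP and 29.4 in WT livers, and Kdelr2, a receptor that returns proteins to the endoplasmic reticulum, 30.1 in YAP and 21.3 in WT livers.

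Away from gene ends, the highest ranks included a region 10469 bp from Hjurp, a chaperone of the centromeric histone, with a signal of 68.3 in YAP and 63.3 in WT livers. A region 30841 bp from Prkcq, a protein kinase C, had 63.2 in YAP and 58.0 in WT livers, and one 12722 bp from Mrto4, a ribosome assembly factor, had 57.3 in YAP and 72.8 in WT livers. Neither the Hjurp nor the Mrto4 region overlapped H3K4me2 in either genotype. Inside Eif1a, a translation initiation factor on chromosome 18, the signal was 78.7 in YAP and 51.1 in WT livers.

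Transfer RNA genes, which RNA polymerase III transcribes, lay at 13 common regions, a feature looked for after the ranks were seen. All 13 overlapped a tRNA gene, and 18 of 408 annotated tRNA genes (4.41%) were within 200 bp. The more numerous YAP-only regions had 25 (6.13%) and WT-only regions 24 (5.88%) of the 408 nearby. The member with the highest WT signal was one of the 13. This region, chr13:21169904-21170303, holds the leucine tRNA genes n-TLaag7 and n-TLaag5 and had a signal of 69.8 in YAP and 74.2 in WT livers. The region just upstream of Polr3e, a gene for a subunit of RNA polymerase III itself, holds n-TLaag4 and had 28.2 in YAP and 38.9 in WT livers.

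A region between Plekhg2 and Zfp36, which holds n-TIaat16, had a signal of 72.6 in YAP and 44.0 in WT livers. The share with a tRNA gene within 200 bp was 2.56% of common regions, against 0.942% of YAP-only regions, a difference of 1.62 points (0.464 to 3.42). Against WT-only regions, at 1.81%, the difference was 0.949 points (-0.568 to 2.89), with the WT coordinates of the common regions. Chromosomes 11 and 13 held 4 each of the 13. Many tRNA genes have near-identical copies, so reads there may have been placed at the wrong copy. That was not tested.

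Promoters of common regions were rich in CpG, as promoters with LSD1 in 1 genotype were. One promoter was taken per region, which gave 178 for common, 573 for YAP-only and 232 for WT-only regions. Median GC content was 60.7% for common, 61.3% for YAP-only and 61.3% for WT-only regions. It was 61.3% over 9010 promoters with H3K4me2 in both genotypes and no LSD1 region, and 56.3% over 21263 protein-coding promoters. A CpG observed-to-expected ratio above 0.6 was found in 80.9% of common (74.5 to 86.0), 81.8% of YAP-only and 83.6% of WT-only promoters. It was found in 74.1% of the 9010 H3K4me2 promoters and in 47.6% of all promoters.

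YY1 letters were more frequent in promoters of common than of YAP-only regions. For the 14 motifs searched on both strands, common promoters were compared with the YAP-only, the WT-only and the 9010 H3K4me2 promoters, and intervals were not adjusted for this number. AAGATGGCG, the core of YY1, a zinc finger factor of general promoters, was in 13 of 178 common promoters (7.30%), in 3.66% of YAP-only, 5.17% of WT-only and 1.83% of all promoters. The difference was 3.64 points against YAP-only (0.114 to 8.59), 2.13 points against WT-only (-2.58 to 7.40) and 4.53 points against the H3K4me2 promoters (1.52 to 9.33), of which 2.77% held it. With regions within 1 kb of each other counted as common, the difference from YAP-only promoters was 3.18 points and its interval held 0 (-0.226 to 7.92).

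All 13 matches lay wholly inside a common LSD1 region. The promoters were chosen by their overlap with such a region, which favours this, and no other motif or promoter set was compared for it. Of the 13, 7 were within the 50 bases after the start, in Pde4dip, Stxbp3, Tpgs1 and the 4 genes printed above. The other 6 were before the start, in Tatdn3, Cstf1, Fuz, Cipc, Naa16 and Pick1. These positions are from the start of the 1 promoter taken per region. From its other start, the Pick1 match began at -5 instead of -214. Other promoters of Ctnnb1 and Lmbrd1 that overlap a common region held the letters at -99 and -164, and were not among the 178. The motif includes the letters ATG, so a match after the start may also be a start codon, which the promoter table does not tell apart.

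FOXA letters were rarer than in YAP-only promoters. TGTTTAC, the core of the FOXA factors of hepatocytes, was in 1 of 178 common promoters (0.562%), 3.84% of YAP-only, 2.59% of WT-only and 3.01% of all promoters. The difference was -3.28 points from YAP-only promoters (-5.24 to -0.418) and -2.02 points from WT-only promoters (-5.0 to 0.884). From the H3K4me2 promoters, at 2.38%, it was -1.81 points (-2.38 to 0.755).

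The ETS core CCGGAAG was in 46 common promoters (25.8%), in 23.9% of YAP-only, 21.6% of WT-only and 11.6% of all promoters. Its difference was 7.06 points from the H3K4me2 promoters (1.134 to 14.0), of which 18.8% held it, and 1.93 points from YAP-only promoters (-4.99 to 9.58). GGAATG, the core of TEAD, through which YAP binds DNA, was in 14.6% of common, 11% of YAP-only, 12.1% of WT-only and 13.6% of all promoters, and none of its 3 intervals left out 0. The same held for the other 10 motifs, among them those of HNF4A, CEBP, NF-Y, NRF1 and ZBTB33. HNF4A letters were in the promoters at Snx11 and Aadat. A match is a description of letters and not of a bound factor.

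**Figure D4:**
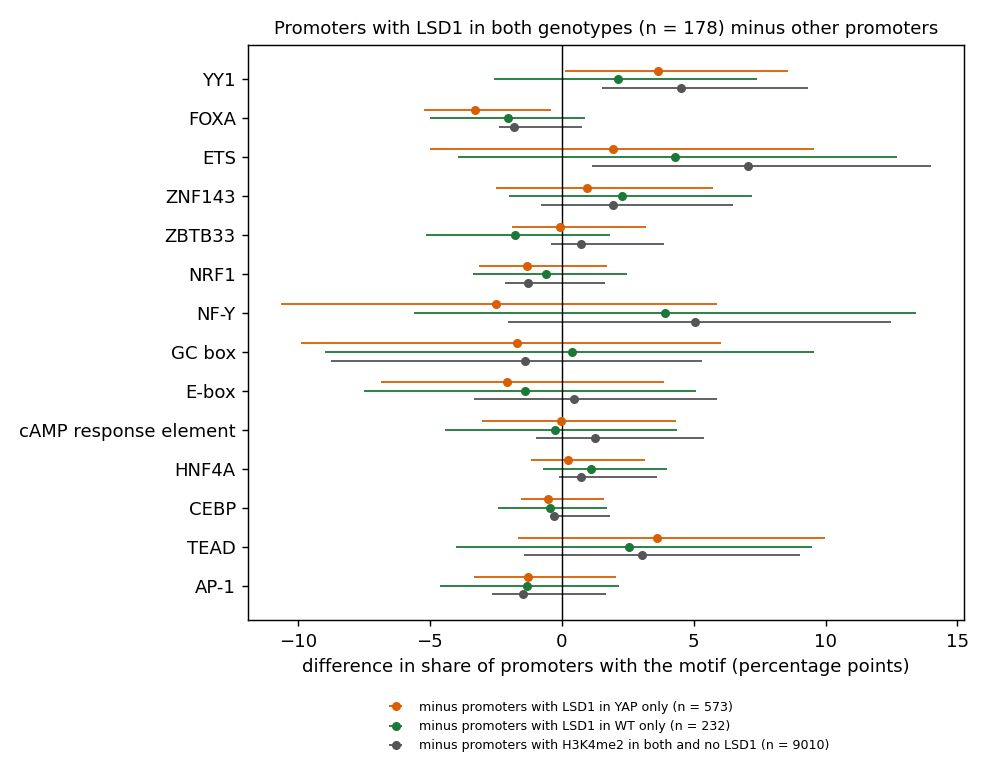
For each motif, the point gives the share of the 178 promoters of common regions that hold it minus the share in 573 YAP-only, 232 WT-only or 9010 LSD1-free H3K4me2 promoters, in percentage points, with Newcombe 95% intervals. YY1 lies right of 0 for YAP-only and H3K4me2 promoters, ETS for H3K4me2 promoters, and FOXA left of 0 for YAP-only promoters.

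H3K4me2 was listed at most common regions in both genotypes. It overlapped 331 (65.3%, 61.0 to 69.3) in both, 19 (3.75%) in YAP livers alone and 37 (7.30%) in WT livers alone, and 120 (23.7%) had none. In bulk liver, fewer cells of a type and less of a mark per cell cannot be told apart. At YAP-only regions the shares were 56.0% in both, 8.07% in YAP livers alone, 5.32% in WT livers alone and 30.6% with none. Common minus YAP-only was 9.31 points for both genotypes (4.63 to 13.8), -4.32 points for YAP alone (-6.08 to -2.05), 1.97 points for WT alone (-0.207 to 4.70) and -6.96 points for none (-10.9 to -2.68). Against WT-only regions, with the WT coordinates of the common regions, no interval of these 4 differences left out 0.

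The mark of each genotype was compared as well. YAP H3K4me2 overlapped 69.0% of common and 64.0% of YAP-only regions, a difference of 4.99 points (0.427 to 9.31). Where the mark had to cover 50% of the region this was 4.56 points (-0.223 to 9.26). WT H3K4me2 overlapped 72.6% of common and 61.3% of YAP-only regions, a difference of 11.3 points (6.81 to 15.5). At gene ends H3K4me2 was listed in both genotypes at 206 of 228 common regions (90.4%), at 90.3% of YAP-only and at 91.7% of WT-only regions. Within gene ends, inside genes and between genes, the differences of common from YAP-only regions in YAP H3K4me2 were -1.62 points (-6.36 to 2.07), 4.21 points (-4.56 to 12.5) and -0.0966 points (-8.89 to 9.08). Inside genes the mark of either genotype was at 70.5% of common and 62.9% of YAP-only regions, a difference of 7.63 points (-0.846 to 15.2).

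H3K4me1 was rarely listed at these regions. It overlapped 1 common region in YAP and 4 in WT livers. At YAP-only regions YAP H3K4me1 overlapped 27 of 2442 (1.11%), and the difference was -0.908 points (-1.43 to 0.0660).

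The median length of H3K4me2 around common regions was much the same in both genotypes. Within 1 kb on both sides of the centre, in YAP coordinates, 419 common regions had some listed H3K4me2. The median was 1291 bases in YAP and 1375 bases in WT livers. The median of log2 YAP over WT bases, with 200 bases added, was -0.04 (quartiles -0.21 and 0.05). At least 2-fold more bases in YAP livers were found at 17 common regions (4.06%), where the share over all LSD1 regions of either list was 7.83%. At least 2-fold fewer were found at 32 (7.64%), where that share was 9.49%.

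These large shifts differed between the kinds of region. A 2-fold higher length in YAP livers was rarer at common than at YAP-only regions, of which 10.55% had it, with a difference of -6.49 points (-8.60 to -3.80). A 2-fold lower length was rarer at common than at WT-only regions, of which 14.6% had it, with a difference of -6.92 points (-10.3 to -3.19). The other 2 differences, -0.0967 points for fewer bases from YAP-only and 0.544 points for more bases from WT-only regions, had intervals that held 0. None of these differences was taken within positions, and common regions lay at gene ends more often, where such shifts were rare. Whether position accounts for the differences was not tested. At gene ends, 0 of 225 common regions had 2-fold more and 3 (1.33%) had 2-fold fewer bases in YAP livers. Of 821 YAP-only regions there, 11 (1.34%) had 2-fold more and 5 (0.609%) had 2-fold fewer.

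Those 3 were at Acy3, an aminoacylase with 191 bases in YAP and 858 bases in WT livers, at Ercc1, a DNA repair gene with 365 in YAP and 1013 in WT livers, and at Ip6k2 with 352 in YAP and 1035 in WT livers. Inside Ddah1, an enzyme that breaks down methylated arginines, 713 bases were listed in YAP and 0 in WT livers. Near Tnfaip2, 763 bases were listed in YAP and 0 in WT livers, and inside Rgs8 504 in YAP and 0 in WT livers. Inside Agpat2, an enzyme of triglyceride synthesis, 0 bases were listed in YAP and 912 in WT livers, and near Hmcn2 0 in YAP and 941 in WT livers.

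**Figure D5:**
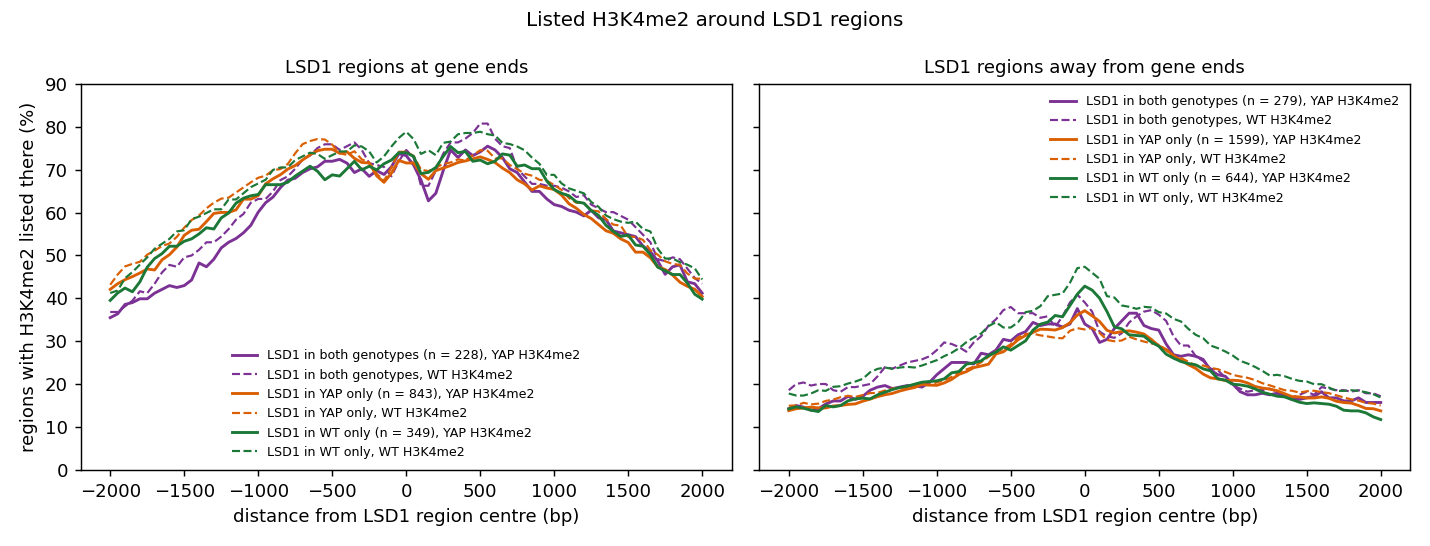
Percentage of LSD1 regions with listed H3K4me2 at each distance from the region centre, in bp, at gene ends on the left and elsewhere on the right. Solid lines are YAP and dashed lines WT H3K4me2. At the centre at gene ends, YAP H3K4me2 was listed at 73.2% of common, 71.5% of YAP-only and 73.9% of WT-only regions. Away from gene ends these shares were 34.1% of common, 37.1% of YAP-only and 42.9% of WT-only regions.

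At gene ends the profile of common regions dipped on both sides of the region centre, rose again and declined farther out. Of the common regions at gene ends, 73.2% had YAP H3K4me2 listed at the centre, 62.7% at 150 bp to the right and 74.1% at 500 bp to the right, against 35.5% at 2000 bp to the left. For WT H3K4me2 the shares were 74.6% at the centre, 66.2% at 150 bp, 80.7% at 500 bp and 36.8% at 2000 bp to the left. To the left of the centre, YAP H3K4me2 was listed at 68.4% at 250 bp and 71.9% at 500 bp. WT H3K4me2 was listed there at 68.4% at 100 bp and 75.9% at 500 bp. YAP-only regions at gene ends dipped as well, with YAP H3K4me2 at 67.0% at 150 bp to the left, 71.5% at the centre and 67.7% at 150 bp to the right. Left and right follow the coordinates and not the strand of the gene. Away from gene ends WT H3K4me2 was listed at the centre of 39.1% of common, 32.8% of YAP-only and 47.4% of WT-only regions. A gap, with the mark on both sides and not at the centre, was found at 41 of 228 common regions in YAP (18%) and 40 in WT livers (17.5%), and at 20% of YAP-only regions in YAP livers. The H3K4me2 regions that overlapped common regions at gene ends had a median length of 1219 bp in YAP and 1282 bp in WT livers. Those at YAP-only regions at gene ends had 1399 bp in YAP and 1462 bp in WT livers, and all listed H3K4me2 regions had 575 bp in YAP and 571 bp in WT livers.

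Members with H3K4me2 in 1 genotype were mostly away from gene ends, as were YAP-only and WT-only regions of this kind. At gene ends were 18 of 197 YAP-only regions with the mark in YAP only and 18 of 130 with it in WT only. Of the WT-only regions, 2 of 31 with it in YAP only and 9 of 91 with it in WT only were. Of all members, 45.0% were at a gene end. Of the 19 members with the mark in YAP only, 1 was at a gene end, and of the 37 with it in WT only, 10 were. The highest ranks with the mark in YAP only were inside Csad, an enzyme of taurine synthesis (signal 55.0 in YAP and 61.0 in WT livers), near Amotl2, an angiomotin that binds YAP (69.6 in YAP and 47.2 in WT livers), and near Onecut3 (48.9 in YAP and 39.96 in WT livers). The Amotl2 region was 46264 bp from the gene and had 239 bases of H3K4me2 in YAP and 0 in WT livers. Regions near Hnrnpa3 and Crybb3 and inside Ppm1l followed.

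With the mark in WT only, the highest ranks were Psmc4, Ip6k2, Fbxw7 and Ercc1, a region inside Dlgap1 and a region near Asap1. At Psmc4 the mark lay within 1 kb in both genotypes all the same, with 793 bases in YAP and 821 in WT livers, and did not reach the LSD1 region in YAP livers. With no overlapping mark, the highest ranks at gene ends were Ube2o, with 577 bases within 1 kb in YAP and 602 in WT livers, and Ctnnb1, with 103 in YAP and 338 in WT livers. Inside Ank2 and near Hjurp no H3K4me2 was listed within 1 kb in either genotype. The YAP signal had a median of 43.1 (quartiles 35.8 and 54.2) at the 120 members with no overlapping mark. At the 331 with the mark in both genotypes its median was 39.5 (34.1 and 49.4). The WT signal was much the same in both classes. Its median was 36.7 (32.0 and 43.6) with no overlapping mark and 37.55 (32.9 and 43.3) with the mark in both genotypes.

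Of 371 genes in 15 lists of liver, YAP, polyamine, chromatin, growth, clock, cAMP and ubiquitin genes, 5 had a common region at an end (1.35%, beside 1.24% of all genes). Among genes with H3K4me2 at an end in both genotypes this was 5 of 329 (1.52%, beside 2.22%). They were Aurka, a mitotic kinase, Fbxw7, Rbx1, the ring protein of cullin ligases, and Zfp36 and Zfp36l2, which destabilise messenger RNA. An end is either boundary of a gene, and the listed start nearest the Zfp36 region was that of Plekhg2, at -3020.5 bp. At Aurka the signal was 58.2 in YAP and 35.8 in WT livers, at Rbx1 24.7 in YAP and 33.0 in WT livers, at Zfp36 38.6 in YAP and 34.2 in WT livers, and at Zfp36l2 41.1 in YAP and 34.9 in WT livers. The lists of hepatocyte identity, liver metabolism, YAP targets, Hippo, polyamine and hypusination, LSD1 complex, H3K4 enzyme, clock, cAMP, biliary and core promoter genes had none at an end. Kdm1a, Yap1, Odc1, Ccn1 and Ccn2 had no common region in the gene or within 5 kb, and Ccn2 had 1 YAP-only region there.

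With 5 kb on both sides and the gene body counted, 12 of the 371 had a common region (3.23%, beside 2.27% of all genes). Srebf1, the regulator of fatty acid synthesis, had a signal of 58.2 in YAP and 50.5 in WT livers, with its centre at -170.5 bp from a start inside the annotated gene. Ahsg, which encodes the plasma protein fetuin-A, had 42.7 in YAP and 44.4 in WT livers. Hnf4a, a hepatocyte transcription factor, had 17.3 in YAP and 18.9 in WT livers, near the bottom of both lists.

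Ppara had a signal of 25.9 in YAP and 23.9 in WT livers, Ddah1 46.6 in YAP and 21.1 in WT livers, and Onecut2, a transcription factor of liver development, 32.2 in YAP and 41.3 in WT livers.

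Lists made from symbols gave 5 of 78 genes of the mitochondrial ribosome, 6.41% beside the 1.24% of all genes. Of the 78, 77 had H3K4me2 at an end in both genotypes, and the share among them was 6.49% beside 2.22%. YAP-only regions were at the ends of 7 and WT-only regions of 5 of the 78, against 980 and 376 of all 21887 genes. The 5 with a common region were Mrpl30, Mrpl35, Mrpl54, Mrps16 and Mrps18c, and Mrps18c had the most unlike pair, with a signal of 17.7 in YAP and 47.2 in WT livers. For 2 of the 5 the nearest start was that of another gene. The Mrpl54 region was centred at -103.5 bp from the start of Apba3, and the Mrps18c region at 154 bp from the start of Helq. Of 101 respiratory chain genes 3 were members, namely Cox11, Cox5b and Ndufs4, and of 51 proteasome genes 2, namely Psma3 and Psmc4. Of 195 trafficking genes 6 were members, of 172 ubiquitin genes 4, of 389 solute carriers 3, of 106 cytochrome P450 genes 1, Cyp4f13, and of 53 splicing genes 1, Srsf1. Among genes with H3K4me2 at an end in both genotypes, shares were 3.297% for respiratory chain, 4.35% for proteasome and 3.39% for trafficking genes. They were 3.15% for ubiquitin, 2.63% for cytochrome P450, 2.04% for splicing and 1.24% for solute carrier genes, beside 2.22% of all such genes. None of 101 genes of the cytosolic ribosome and none of 1110 olfactory receptor genes had one. These counts had no test, and the lists were chosen with the ranks known.

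Common regions were spread over the genome. Chromosomes 1 to 19 and X held 12 to 21.3% of their YAP regions as members. Neighbouring members were a median of 2406 kb apart, 41 pairs lay within 100 kb and 10 within 5 kb. Close pairs were near G6pc, the glucose-6-phosphatase of hepatocytes, and at Bckdha and Exosc5, Zfp788, and Gpat4.

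The tissue label was checked against listed H3K4me2 at gene ends. Of all 21887 protein-coding genes, 12223 had it in both genotypes, so counts near that share tell little about a cell type. Of 7 hepatocyte genes 6 had it in YAP and 6 in WT livers. Of 5 cholangiocyte genes 3 had it in YAP and 2 in WT livers, of 4 macrophage genes 1 in YAP and 1 in WT livers, and of 4 endothelial genes 2 in YAP and 1 in WT livers. Of 4 stellate genes 1 had it in YAP and 0 in WT livers, and of 4 lymphocyte genes 2 in YAP and 1 in WT livers. What other cell types add to the results was not tested.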

How the data were processed

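Regions of 3 antibodies in YAP and WT livers were analysed as deposited, 1 list per antibody and genotype (6 lists, 123145 entries). Micrococcal nuclease, whose cuts follow nucleosome positions, fragmented the chromatin, and libraries were amplified by PCR, per the labels' protocols. The submitters' processing notes name mm10 as build and, as tools, deepTools 3.3.0, bedtools 2.26.0, Picard 1.126, SAMtools 1.7, BWA and Trimmomatic 0.39. How peaks were called, at what threshold and with which use of inputs, is not given in the sources used here. Each list combines both replicates, by a step that is not stated, and read depth is unknown. Each region has a score and a signal deposited by the authors, used to rank or filter within a list only. LSD1 entries all have 1 width, 400 bp in YAP and 396 bp in WT.

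Entries that overlapped or touched were merged (3353 to 2949 in YAP, 1718 to 1500 in WT), on chromosomes 1 to 19, X and Y. Shares have Wilson intervals and differences Newcombe intervals. Genes, starts and promoters came from RefSeq tables of GRCm38.p6. No genome was used, so base composition and motifs were read from promoters that regions overlap, in place of the regions planned, and starts from the promoter table. Regions on promoters of several genes count once. Named genes are the 24 with the highest and the 5 with the lowest mean percentile of signal over both lists among members at gene ends, list members, up to 6 regions per H3K4me2 class and away from gene ends, the pairs nearest the overlap limit, and Kdm1a, Yap1, Odc1, Ccn1 and Ccn2; Gm and Rik symbols were left out, and some members under this rule are not reported here. Members and lists were chosen with earlier results of these data known. tRNA genes, mark profiles, H3K4me2 region lengths, the differences in 2-fold counts and the YY1 positions were chosen after values were seen. So were Fbxw7 and Ccdc90b as examples of signal pairs, Mrps18c and the close pairs. Computations used pandas 2.3.3 and numpy 2.4.6 in Python 3.11.15, and figures matplotlib 3.10.9. The overlap code was checked against bedtools 2.31.1 on simulated regions. Alternatives changed the overlap rule, the score filter, the gene window, the H3K4me2 rule and the promoter choice.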

Additional observations from a re-analysis of the deposited data

How the results depend on the processing

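No paired analysis was possible because each list combines both replicates, and for the same reason no replicate could be left out. Motifs within 200 bp of region centres were not run, since no genome was used. Of 59 alternative values, 48 kept their direction and their side of 0, or their size. The number of common regions was 254 with the higher 50% of each list by score, against 507 with all regions. It was 467 with an overlap of 50% of the YAP region, 569 within 1 kb and 380 with lists of equal size. The gene end differences ranged from 9.22 to 11.04 points from YAP-only regions and from 7.25 to 10.6 points from WT-only regions, and every interval left out 0. The difference from YAP-only regions in YAP H3K4me2 was 4.56 points (-0.223 to 9.26) where the mark had to cover 50% of the region, and 4.55 points (-0.171 to 9.02) with the 50% overlap rule. From WT-only regions the WT H3K4me2 difference turned to -2.85 points (-8.11 to 2.36) under 50% coverage, against 2.17 points. The share with the mark in both genotypes was 50.5% under 50% coverage, 74.2% within 1 kb and 57.0% with the higher 50% of H3K4me2 regions. The H3K4me1 difference of -0.959 points left out 0 (-1.49 to -0.0722) with common regions defined within 1 kb. The YY1 difference was 3.18 points (-0.226 to 7.92) under that definition. With every overlapping promoter, an alternative chosen after seeing the data, the CpG difference was 0.429 points (-5.77 to 5.80), against -0.951 points. List genes with a common region were 12 with 5 kb and the gene body, against 5 at gene ends. The cause of these shifts was not tested. Read depth is unknown, so the absence of a region from a list does not show the absence of LSD1.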
